A study of Mus musculus with 6 samples.

Results

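G2/M-high and G2/M-low cells were the wells in the top and the bottom quartile of each library by a mitotic score, so they were chosen by measured values. The score was the summed share of a well's gene counts that fell on 12 genes, namely Cdk1, Ccnb1, Ccnb2, Top2a, Mki67, Cenpe, Cenpf, Aurka, Plk1, Ube2c, Hmmr and Tpx2. Of 1128 sequenced wells, 903 held between 10000 and 200000 gene counts and were ranked, which gave 223 G2/M-high wells, 223 G2/M-low wells and 457 wells in the middle quartiles. Each well received 1 sorted mouse embryonic stem cell, and transcripts were counted by their 3' ends with SORT-seq, a plate form of CEL-Seq2. The lines R1 and IB10, both established mouse embryonic stem cell lines, each gave 1 library in each of 3 serum-free N2B27 cultures, and all cultures contained LIF. LIF_2i added 3 µM CHIR99021, a GSK3 inhibitor, and 0.1 µM PD325901, a MEK inhibitor, at passage 24 (R1) or 28 (IB10). Rosette_LIM, the rosette-like state, had 0.1 µM PD325901 and 2 µM IWP2, an inhibitor of WNT secretion; R1 had spent 6 passages in it (passage 28) and IB10 5 (passage 33). Primed_4d had 2 µM IWP2, 20 ng/ml Activin A and 12 ng/ml FGF2 for 4 days, with the cells at passage 24 (R1) or 28 (IB10). Replicate and line coincide, and no label says that the cultures of a line were separate, so p-values rest on the spread among these 6 libraries, which may be technical. The comparison asks which transcripts go with the mitotic score in all 3 cultures and which do so in some of them.

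As background, cyclin B with CDK1 drives entry into mitosis, PLK1 and the Aurora kinases build the spindle, and the anaphase-promoting complex with CDC20 and then FZR1 marks cyclin B and other proteins for destruction. Many of the genes involved are transcribed late in the cycle through paired promoter elements, CCAAT boxes bound by NF-Y and a downstream cell cycle genes homology region (CHR) bound by the MuvB core complex with B-MYB and FOXM1, or with DREAM when they are off. Genes of DNA replication are instead switched on around the start of S phase through E2F sites. Mouse embryonic stem cells are known for a short G1 phase, so most cells of a culture are in S, G2 or M at any time.

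Promoters of 7 genes, picked by hand, are shown as examples of the letters counted below. Cdk1 and Ube2c are in the score, Kpna2, Prr11, Cdc20 and Kif23 rose with it, and Cdc6 fell. Each line gives 200 bases, 170 before the RefSeq start site and 30 from it on, 5′ to 3′ on the gene's strand, in build GRCm38.p6. Capitals mark CHR letters (TTTGAA or TTCGAA, either strand) and CCAAT (either strand) in the first 6, and E2F letters (TTTGGCGC or TTTCCCGC, either strand) in Cdc6.
Cdk1 (minus strand, chr10:69352883-69353082): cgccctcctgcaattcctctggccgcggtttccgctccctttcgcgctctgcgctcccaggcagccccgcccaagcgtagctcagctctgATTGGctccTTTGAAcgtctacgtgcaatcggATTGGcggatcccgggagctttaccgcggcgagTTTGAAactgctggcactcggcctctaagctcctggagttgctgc
Ube2c (plus strand, chr2:164769759-164769958): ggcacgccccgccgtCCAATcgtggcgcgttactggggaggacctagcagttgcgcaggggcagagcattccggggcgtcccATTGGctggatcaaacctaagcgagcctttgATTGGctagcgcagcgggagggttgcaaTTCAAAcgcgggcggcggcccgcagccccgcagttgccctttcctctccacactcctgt
Kpna2 (minus strand, chr11:106999496-106999695): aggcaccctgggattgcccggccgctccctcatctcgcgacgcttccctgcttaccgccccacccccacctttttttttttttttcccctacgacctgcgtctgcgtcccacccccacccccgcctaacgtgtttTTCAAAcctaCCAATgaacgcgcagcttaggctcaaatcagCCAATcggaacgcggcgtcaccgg
Prr11 (minus strand, chr11:87108685-87108884): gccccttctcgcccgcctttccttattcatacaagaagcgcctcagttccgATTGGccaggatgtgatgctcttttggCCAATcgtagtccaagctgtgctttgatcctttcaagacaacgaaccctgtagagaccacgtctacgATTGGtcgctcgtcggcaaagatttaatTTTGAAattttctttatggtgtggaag
Cdc20 (minus strand, chr4:118437314-118437513): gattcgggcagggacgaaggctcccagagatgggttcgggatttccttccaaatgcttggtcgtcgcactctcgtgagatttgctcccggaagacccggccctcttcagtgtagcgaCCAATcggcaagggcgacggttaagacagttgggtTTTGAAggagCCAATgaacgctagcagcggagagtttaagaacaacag
Kif23 (minus strand, chr9:61946770-61946969): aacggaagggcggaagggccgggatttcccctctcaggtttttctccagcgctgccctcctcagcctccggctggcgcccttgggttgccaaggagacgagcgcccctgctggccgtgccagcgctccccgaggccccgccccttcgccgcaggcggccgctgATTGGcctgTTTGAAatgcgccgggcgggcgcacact
Cdc6 (plus strand, chr11:98907981-98908180): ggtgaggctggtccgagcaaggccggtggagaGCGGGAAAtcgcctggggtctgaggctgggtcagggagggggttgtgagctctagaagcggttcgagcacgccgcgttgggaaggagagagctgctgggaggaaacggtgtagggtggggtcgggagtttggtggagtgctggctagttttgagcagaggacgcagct
In all 6 genes of the first set a CHR lies within 100 bases of the start site and at least 1 CCAAT box is in the window. In Kpna2 the CHR stands before the CCAAT boxes, the reverse of the order given above. The Cdc6 line holds 1 run of E2F letters and neither CHR nor CCAAT letters. It lies wholly inside the gene as GENCODE places it (chr11:98907801-98923940), so it may miss that gene's promoter.

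The score was a continuous quantity with no gap between quartiles. Its median over wells lay between 2164 (primed_4d R1) and 2937 (rosette_LIM IB10) CPM, counts of the 12 genes per 1000000 gene counts of the well. The top quartile's median was 2.34 times the bottom quartile's in LIF_2i IB10, the smallest ratio, and 3.22 times in primed_4d IB10, the largest. At the upper cut the last well inside and the first outside stood at 3404 and 3387 CPM in LIF_2i R1, and at 3436 and 3229 in primed_4d IB10. At the lower cut the same libraries had 1928 inside and 1948 outside, and 1434 inside and 1467 outside. A well's score rested on a median of 89.1 counts (6 to 447), so a well near a cut can fall on either side of it by counting error. The quartiles are ranges of the score and not cycle phases. They held 38, 46, 43, 36, 24 and 36 wells per library in the order LIF_2i R1, LIF_2i IB10, rosette_LIM R1, rosette_LIM IB10, primed_4d R1 and primed_4d IB10.

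**Figure D1:**
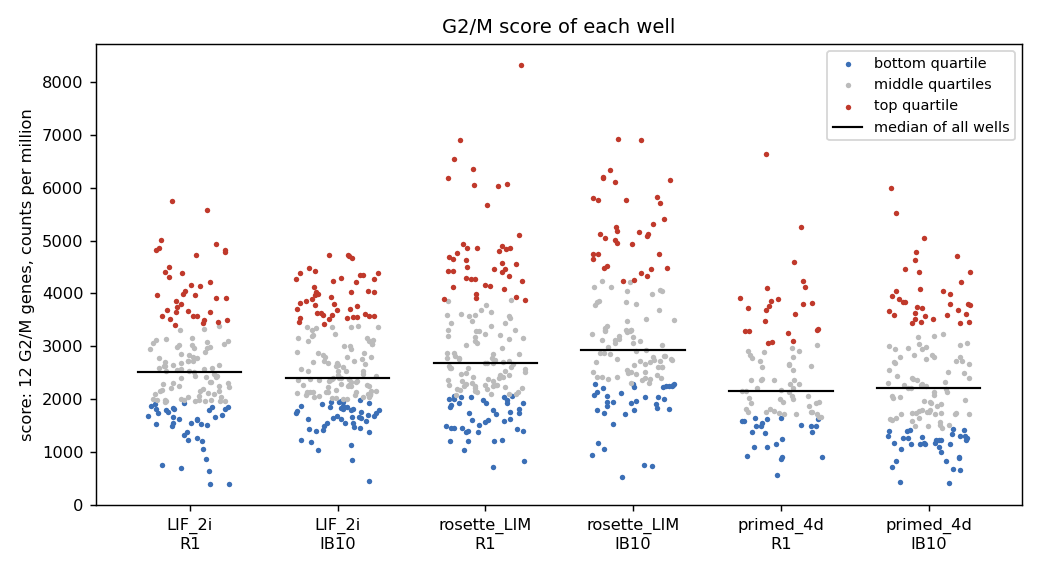
Each point is 1 well; the vertical axis is its score, the summed CPM of the 12 genes, and the columns are the 6 libraries. Red points are the top quartile, blue the bottom quartile and grey the middle, with a black line at each library's median; the scores run without a gap through both cuts.

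The 12 genes contributed unevenly. Top2a, the topoisomerase that untangles sister chromatids, held 19.026% of the score's counts, Ube2c, the ubiquitin-conjugating enzyme of the anaphase-promoting complex, 16.6%, and Ccnb1 (cyclin B1) 14.9%. When each gene was left out of the score in turn and the wells were ranked by the other 11, the gene itself was higher in the top quartile in 6 of 6 libraries for 11 of the 12. These ratios are a description, since the genes were chosen as a set. Cenpf, a kinetochore protein, had a median ratio of 3.64 (2.44 to 4.00 over libraries), Aurka (Aurora A kinase) 3.63 (2.62 to 4.96) and Plk1 3.21 (2.51 to 5.67). Ube2c had 3.18, Ccnb1 2.50, Cenpe, a kinetochore motor, 2.30, and Top2a 2.28. Hmmr, a spindle-assembly protein, had 2.15, Cdk1 2.13, Mki67 (the Ki-67 antigen) 1.99 and Tpx2, an activator of Aurora A, 1.77. Ccnb2 (cyclin B2) stood apart from Ccnb1: its ratio was 1.12 (0.983 to 1.38), higher in 5 of 6 libraries, with levels of 119, 176 and 264 CPM (lowest, median and highest library) in the top quartiles and 95.6, 158 and 249 in the bottom quartiles, which overlap.

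G2/M-high wells held more RNA. The ERCC spike-in is a fixed amount of foreign RNA per well, and the median gene counts per ERCC count were 38.8, 54.7 and 64.3 (lowest, median and highest library) in the bottom quartiles and 61.1, 75.953 and 98.2 in the top quartiles. All 6 libraries rose, by 1.23 to 1.62 times with a geometric mean of 1.48 (exact sign-flip permutation over 6 libraries, two-sided p = 0.03125, the smallest this design allows; adjusted over 4 well measures 0.0417). Gene counts per well were 25296, 30378 and 39057 in the bottom and 37984, 42722 and 50734 in the top quartiles, a mean ratio of 1.41 with 6 of 6 libraries higher (exact p = 0.03125, adjusted 0.0417). Genes detected per well rose in 6 of 6 libraries by a mean ratio of 1.14 (exact p = 0.03125, adjusted 0.0417). With each well thinned to 10000 UMIs that ratio was 1.01. ERCC counts themselves were higher in 3 libraries and lower in 3, with a mean ratio of 0.975. The mitochondrial share of counts was lower in 5 of 6 libraries, by a mean ratio of 0.960 (0.899 to 1.01, exact p = 0.0625). Gene levels below are shares of a well group's counts, so a gene at the same level in both quartiles still has more molecules per G2/M-high well.

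**Figure D2:**
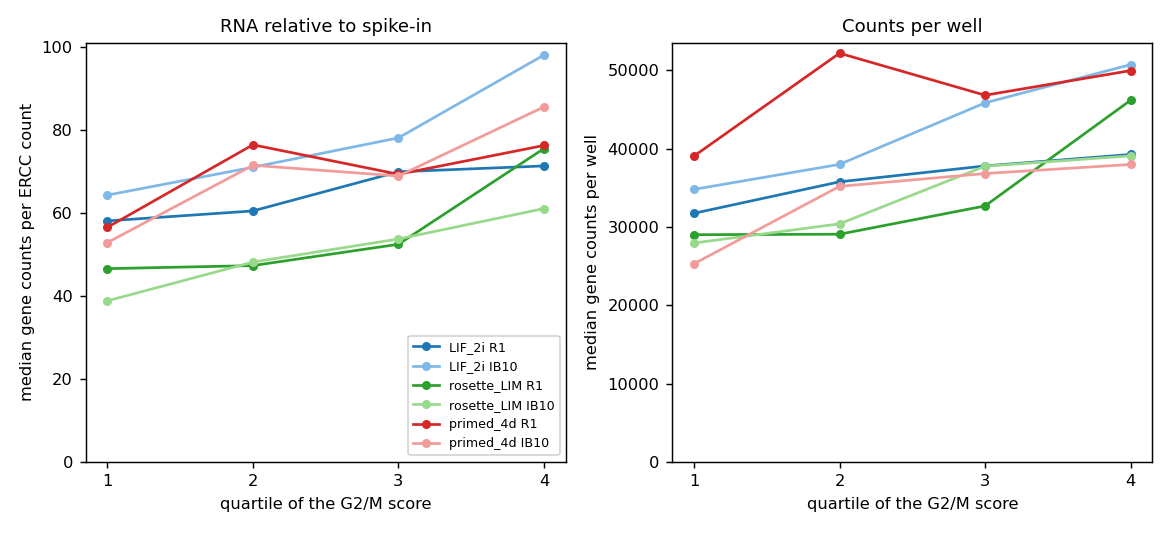
Median gene counts per ERCC count (left) and median gene counts per well (right) against the quartile of the G2/M score, from 1 (lowest) to 4 (highest), with 1 line per library. In both panels the fourth quartile lies above the first in all 6 libraries.

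Across other genes, G2/M-high cells had higher transcripts of most listed G2/M, spindle and kinetochore genes and lower transcripts of 21 of 42 listed DNA replication genes. Counts were summed over the wells of each quartile and library and compared with edgeR's quasi-likelihood test, with each library as its own block and Benjamini-Hochberg adjustment over 10125 genes; a gene was called at an adjusted p under 0.05. With 294 genes higher (2.90% of those tested) and 176 lower (1.74%), 4.64% were called in all. The median log2 fold change of all tested genes was -0.00288. Of the calls, 233 rises (2.30% of genes tested) and 124 falls (1.22%) had the same sign in all 6 libraries, against 5.54% and 4.32% of all tested genes that did so with no test. A stricter set was also called in each of the 3 cultures alone: 51 rises (0.504%) and 5 falls (0.0494%). Top and bottom sums of the 6 libraries did not overlap in 83 genes that were higher (0.820% of those tested) and 30 that were lower (0.296%). In these sums, more wells with a transcript and more transcript per well cannot be told apart.

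The 51 rises called in every culture included Anln, Arhgap11a, Arhgap19, Arhgef39, Arl6ip1, Aspm, Aurkb, Bub3, Ccnf, Cdc20, Cdca2, Cdca3, Cenpa, Ckap2, Ckap2l, Cks2, Dbf4, Depdc1a, Ect2, Fam64a, Fam83d, Fzr1, H2afx, Hn1, Incenp, Kif11, Kif18a, Kif20a, Kif20b, Kif22, Kif23, Kif2c, Knstrn, Kpna2, Nek2, Nusap1, Papd7, Prc1, Prr11, Racgap1, Sgol2, Slc28a1, Smc4, Spc25, Tacc3, Trim59, Troap, Tuba1c, Tubb4b and Ube2s. The 5 falls were Cdc6, Fam111a, Orc6, Pcna and Ung. Of the 51 rises, 35 belong to the 3 mitotic lists used here (G2/M regulators, spindle and cytokinesis, kinetochore and cohesion) and 16 do not. Of the 5 falls, Cdc6, Pcna and Ung are in the list of S phase genes. All 56 were called overall under DESeq2, without the library block, with each library left out and with each of the other score definitions and well ranges tried. The exception was thinning of every well to 10000 UMIs, where 53 of the 56 were called; Cdc6 (adjusted p = 0.112), Depdc1a (adjusted p = 0.263) and Nek2 were not.

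**Figure D3:**
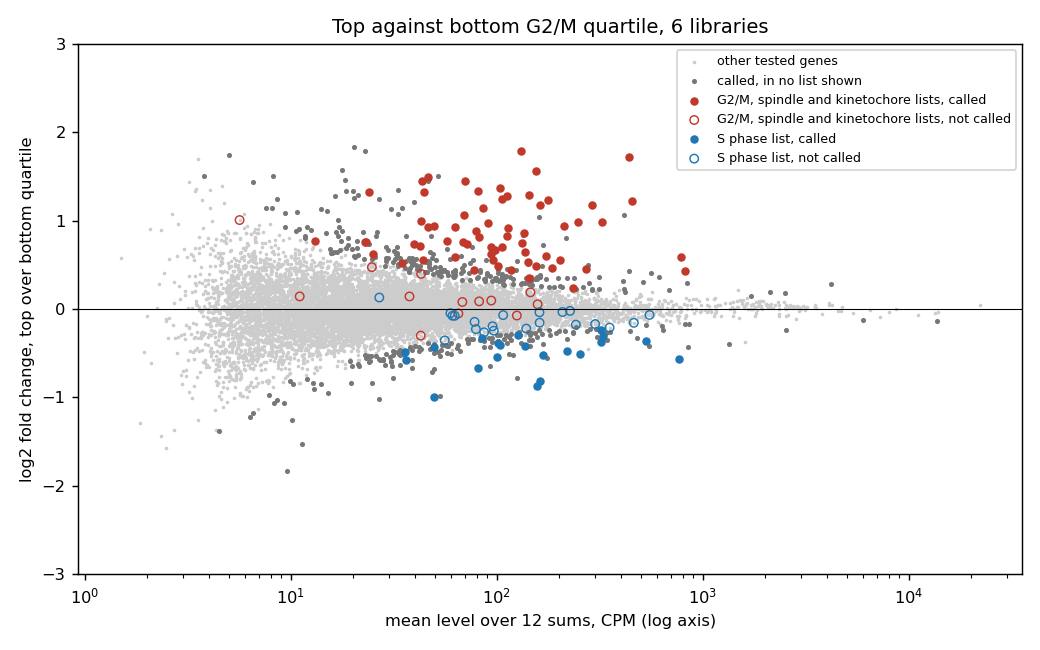
Each point is 1 of 10125 genes; the horizontal axis is its mean level over 12 sums of wells (CPM, log axis) and the vertical axis the log2 fold change of the top over the bottom quartile across 6 libraries. Red marks the 3 mitotic lists and blue the S phase list, filled where called; all filled red points lie above 0 and all filled blue points below it.

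Among G2/M regulators outside the score, 23 of 29 rose and 0 fell, with a median log2 fold change of 0.56 over the 29. Kpna2, an importin that carries spindle factors into the nucleus, stood at 153, 207 and 239 CPM (lowest, median and highest of 6 libraries, scaled by TMM) in the bottom quartiles and at 560.1, 651 and 783 in the top quartiles. Its 2 groups of libraries do not overlap, and its log2 fold change was 1.72 ± 0.07 (SE; adjusted p = 8.64e-21), 3.29 times. Fzr1, which takes over the anaphase-promoting complex at mitotic exit, went from 60.6, 83.6 and 111 to 160.1, 193 and 259 CPM, again without overlap (log2 fold change 1.29 ± 0.08, adjusted p = 4.04e-15). Cdc20, its partner earlier in mitosis, was at 95.1, 154 and 176 in the bottom and 218, 303 and 318 CPM in the top quartiles (log2 fold change 0.94 ± 0.09, adjusted p = 7.24e-10). Ube2s, the enzyme that extends ubiquitin chains on the same complex, rose less, by 0.43 ± 0.05, and its groups overlap, at 624, 674 and 865 and 846, 920.4 and 1082 CPM. Aurkb, the kinase of the chromosomal passenger complex, rose by 1.44 ± 0.13 from 15.7, 39.1 and 48.995 to 77.4, 99.9 and 134 CPM. Ccnf (cyclin F) rose by 1.24 ± 0.08, and Cks2, a small subunit of cyclin-dependent kinases, by 0.99 ± 0.07. Cdc25c, a phosphatase that activates CDK1, rose by 1.32 ± 0.18 but was not called in every culture alone. Ccna2 (cyclin A2), present from S phase on, rose by 0.45 ± 0.07 and Pttg1 (securin) by 0.35 ± 0.08, both with overlapping groups. The 6 members that were not called were Cdkn3, Fbxo5, Mad2l1, Melk, Pbk and Pkmyt1, with log2 fold changes of 0.47, -0.07, 0.19, 0.09, 0.14 and 0.14 in that order. Fbxo5 encodes EMI1, an inhibitor of the anaphase-promoting complex in S and G2, and Pkmyt1 a kinase that holds CDK1 inactive.

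Among spindle and cytokinesis genes 26 of 29 rose and 0 fell, and the median log2 fold change over the 29, the highest of the 26 lists with a tested gene, was 0.88. Nusap1, which bundles spindle microtubules, stood at 40.4, 50.5 and 109 CPM in the bottom and 150.4, 179.8 and 302 CPM in the top quartiles, with no overlap. Its log2 fold change was 1.78 ± 0.10 (adjusted p = 4.48e-16), 3.44 times. Prc1, which organises the central spindle, was at 48.9, 82.3 and 108 and 197, 215 and 295 CPM (log2 fold change 1.56 ± 0.09, adjusted p = 2.33e-15). Of the kinesins, Kif11, which pushes spindle poles apart, rose by 1.34 ± 0.11, Kif18a, which limits microtubule length at kinetochores, by 1.45 ± 0.14, Kif23 of the central spindle by 1.14 ± 0.10 and Kif20a by 0.81 ± 0.10. Kif23 was at 39.7, 54.2 and 65.8 CPM in the bottom and 99.2, 123 and 143 CPM in the top quartiles. Of the cytokinesis genes, Ect2, a guanine nucleotide exchange factor that acts at the cell equator, rose by 0.92 ± 0.09, and Anln (anillin) by 0.75 ± 0.08. The tubulin genes Tuba1c and Tubb4b rose by 1.18 ± 0.08 and 0.59 ± 0.05, and Tubb4b, at 462, 647 and 719 and 833, 892 and 1182 CPM, did not overlap between quartiles. Tuba1c has close relatives among the tubulins, and no source used here gives how reads shared between copies were counted. The centrosome and spindle proteins Ckap2l, Fam83d, Tacc3 and Ckap2 rose by 1.32 ± 0.14, 1.50 ± 0.13, 0.65 ± 0.09 and 0.55 ± 0.07. Cep55, Cit and Kif15 were not called, with log2 fold changes of 0.10, 1.01 and 0.08.

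Kinetochore and cohesion genes rose in 15 of 19 cases and fell in 0, with a median of 0.63. Cenpa, the centromeric histone H3 itself, was at 145, 159.7 and 211 CPM in the bottom and 289, 337 and 368 CPM in the top quartiles (log2 fold change 0.98 ± 0.07, adjusted p = 9.74e-14). Every top value was above every bottom value. Incenp, the scaffold of the passenger complex, rose by 1.24 ± 0.09 and Bub3, of the spindle checkpoint, by 1.18 ± 0.09. Outside this list, Cenpl rose by 1.57 ± 0.19 and Bub1, counted among the G2/M regulators, by 0.48 ± 0.10. Bub1 was higher in 5 of 6 libraries and not called with thinned wells (adjusted p = 0.198). Cdca5, Ska3, Spc24 and Zwint were not called (log2 fold changes -0.05, 0.40, 0.05 and -0.30). Cdca5 encodes sororin, which protects cohesion from S phase on. Of condensin, chromatin and nuclear envelope genes 5 of 19 rose and 0 fell, with a median of 0.13. Smc4 and Smc2, the core of condensin, rose by 0.81 ± 0.07 and 0.34 ± 0.07, Ncaph of condensin I by 0.71 ± 0.11, the histone variant H2afx by 1.06 ± 0.08 and the heterochromatin protein gene Hp1bp3 by 0.63 ± 0.15. Smc2 was not called without the library block (adjusted p = 0.0815), nor Ncaph with thinned wells (adjusted p = 0.101). The 10 mitotic markers that the score did not use (Ccna2, Cdc20, Bub1, Cenpa, Kif11, Kif20a, Kif23, Nusap1, Prc1 and Birc5, whose fold change was 0.46 ± 0.07) were all called higher, which is the direction the name G2/M-high states. These 10 were chosen with earlier results of these data known, and other members of the same lists, such as Mad2l1, Melk, Cdca5 and Zwint, were not called.

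Among all called genes with 1 sign in 6 libraries and a mean of at least 10 CPM, the 20 largest rises ran from 1.83 down to 1.32 on the log2 scale. Prr11, a proline-rich protein with a cell cycle role, led them at 3.14, 9.30 and 13.6 CPM in the bottom and 26.9, 29.9 and 42.013 CPM in the top quartiles (adjusted p = 5.80e-09). Arhgef39, a guanine nucleotide exchange factor, stood at 6.81, 10.8 and 12.7 and 27.9, 33.8 and 46.4 CPM (log2 fold change 1.79 ± 0.18). Besides genes given above, the 20 held Aspm, a spindle pole protein (1.51 ± 0.12), Fam64a (1.48 ± 0.14), Depdc1a (1.46 ± 0.19) and Arhgap11a, a GTPase-activating protein (1.45 ± 0.14). Cdca2 of the kinetochore list, which brings a phosphatase to anaphase chromatin, had 1.37 ± 0.11. The 20 also held Troap (1.34 ± 0.14), Sapcd2, a protein of spindle orientation (1.33 ± 0.18), and Gna15, a G protein alpha subunit (1.34 ± 0.19). Gna15 and Sapcd2 were not called with wells thinned to 10000 UMIs (adjusted p = 0.114 and 0.368). Of the 20, Gna15 alone had overlapping quartiles, at 1.06, 9.75 and 24.4 and 5.22, 31.3 and 39.2 CPM. Over all tested genes 0.820% were higher without overlap, but choosing the largest rises with 1 sign in 6 libraries favours genes without overlap. From the 16 rises called in every culture outside the mitotic lists, 4 more were picked after their values were seen. Hn1, also called Jpt1, stood at 93.5, 105 and 120.5 and 176, 209.9 and 260.1 CPM, Trim59 rose by 0.83 ± 0.09, and Slc28a1, a nucleoside transporter, by 0.83 ± 0.13. Dbf4, the activator of the replication kinase CDC7, rose by 0.73 ± 0.07 from 109, 122 and 162 to 177, 207 and 253 CPM, without overlap, while 0 of the S phase list rose.

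**Figure D4:**
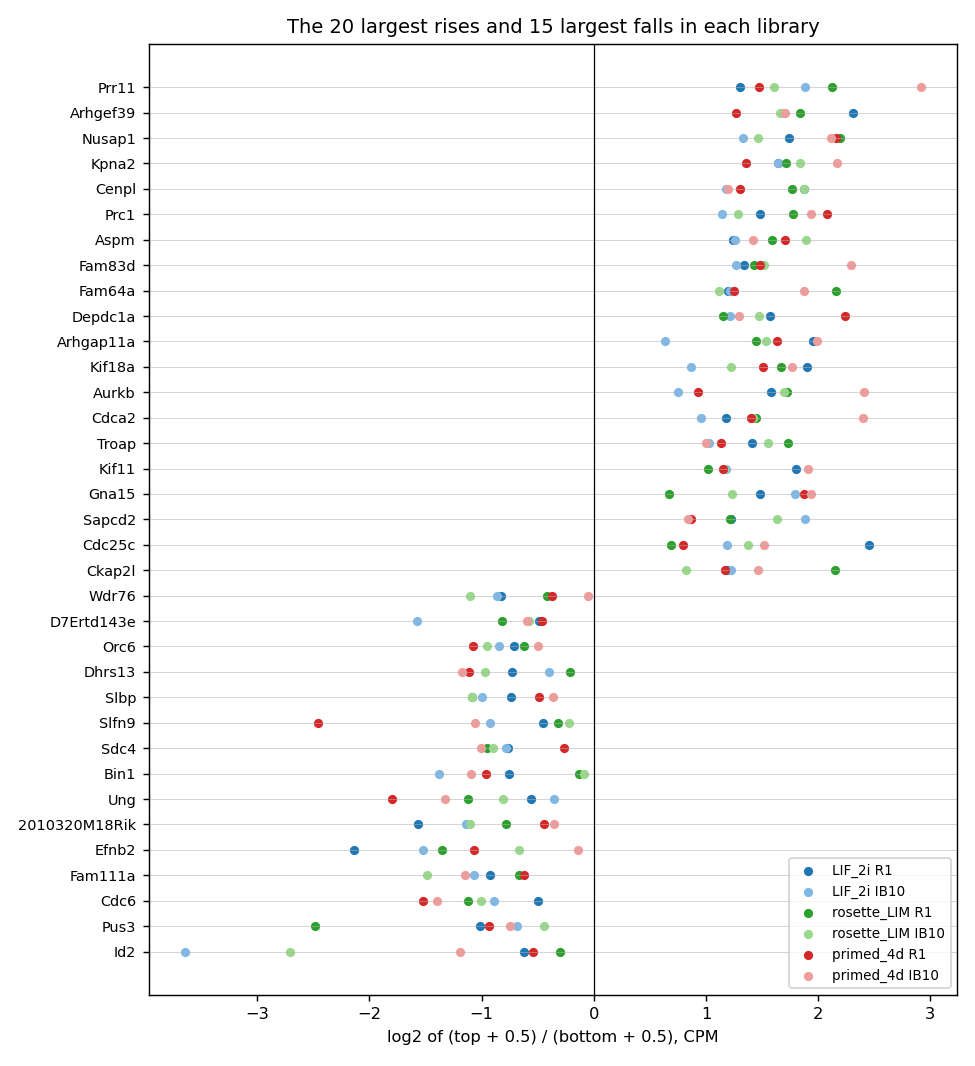
For the 20 largest rises and 15 largest falls, each point is 1 library; the horizontal axis is the log2 ratio of the top to the bottom quartile, in CPM with 0.5 added to both. All points of the rises lie right of 0 and all points of the falls left of it, as the choice of genes requires; the spread within a gene is widest for Id2.

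Of the DNA replication genes 21 of 42 fell, 0 rose, and the median log2 fold change was -0.28. Pcna, the sliding clamp of DNA polymerase, stood at 761, 923 and 1032 CPM in the bottom and 551, 606 and 732 CPM in the top quartiles, with no overlap (log2 fold change -0.57 ± 0.06, adjusted p = 9.66e-10). Orc6, of the origin recognition complex and outside the list, was at 145, 158 and 178 and 82.5, 87.7 and 111 CPM, also apart (log2 fold change -0.78 ± 0.08, adjusted p = 6.07e-09). Its change was nearly the same in the 3 cultures, at -0.78 in LIF_2i, -0.77 in rosette_LIM and -0.78 in primed_4d. Cdc6, which loads the replicative helicase, went from 49.1, 66.3 and 79.4 to 18.4, 32.963 and 54.5 CPM (log2 fold change -0.99 ± 0.12, adjusted p = 2.62e-07). Ung, which removes uracil from DNA, went from 147, 209 and 251 to 41.8, 109.8 and 196 CPM (-0.87 ± 0.10, adjusted p = 8.95e-08). In Cdc6 and Ung the lowest bottom library overlaps the top libraries, though each library fell. Slbp, which binds the stem-loop of histone mRNAs, was at 164, 208 and 234 and 91.2, 122 and 137 CPM without overlap (-0.81 ± 0.08, adjusted p = 3.89e-09). Fam111a, a protease that interacts with PCNA, fell by 0.98 ± 0.12. The helicase subunit gene Mcm6 fell by 0.38 ± 0.07, while Mcm5, one of the S phase markers, had -0.21 ± 0.07 (adjusted p = 0.0695) and was not called. Gins2 and Dtl, also S phase markers, had log2 fold changes of -0.55 ± 0.10 and -0.41 ± 0.09 and were called; Ccne2 (cyclin E2) was too low to be tested. With thinned wells Mcm6 and Dtl were not called (adjusted p = 0.0873 and 0.243). Of 4 tested histone genes only Hist1h2bc was called, at 9.08, 14.6 and 23.3 CPM in the bottom and 2.59, 3.63 and 6.45 CPM in the top quartiles (-1.83 ± 0.27, adjusted p = 1.12e-05); replication-dependent histone mRNAs lack a poly(A) tail and are poorly primed by oligo(dT).

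The other large falls, by the same rule, were less even between libraries. Id2, an inhibitor of basic helix-loop-helix factors, stood at 2.27, 8.93 and 34.5 CPM in the bottom and 0, 2.37 and 17.4 CPM in the top quartiles (log2 fold change -1.26 ± 0.33, adjusted p = 0.0179), and lost its call when a library was left out (adjusted p = 0.0838 without rosette_LIM IB10 and 0.0797 without primed_4d IB10). Pus3, a pseudouridine synthase, had -1.01 ± 0.18, Sdc4, a syndecan of the cell surface, -0.84 ± 0.15, Wdr76 -0.68 ± 0.12, D7Ertd143e -0.78 ± 0.15 and 2010320M18Rik -0.90 ± 0.22; all were called and stayed so with each library left out. With thinned wells Pus3, Sdc4 and D7Ertd143e were not called (adjusted p = 0.706, 0.0512 and 0.159), and under DESeq2 2010320M18Rik was not (adjusted p = 0.137). Efnb2 (ephrin B2, -0.95 ± 0.23) was not called without rosette_LIM R1 (adjusted p = 0.0536) or without primed_4d R1 (adjusted p = 0.0578). Bin1 (-0.85 ± 0.22, adjusted p = 0.139 without LIF_2i IB10 and 0.0659 without primed_4d IB10) and Slfn9 (-0.83 ± 0.20, adjusted p = 0.0660 without primed_4d R1) depended on single libraries as well, and with wells thinned to 10000 UMIs the log2 fold change of Slfn9 turned to 0.045. Dhrs13 (-0.79 ± 0.23) lost its call without each library except rosette_LIM R1 (adjusted p up to 0.144).

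The summed levels of the G2/M and spindle lists had medians that were higher in each successive quartile, while that of the S phase list was lower in each. The G2/M regulators' summed level was 2832, 3439 and 3663 CPM (lowest, median and highest library) in the first quartile, 3363, 3853 and 4247 in the second, 4066, 4367 and 5033 in the third and 5257, 5430.2 and 6336 in the fourth. The spindle list went through 1817, 2636 and 2750.3, then 2349, 2990.0 and 3303, then 3149, 3517 and 4059.7, and reached 3938, 4231 and 4983. The S phase list was at 7955, 8745 and 8998 in the first and 7476, 8606 and 9274 in the second quartile, and at 6678, 7892 and 8153 and 6159.5, 6797 and 7757 in the third and the fourth. From the first to the second quartile the S phase sum was higher in 3 of 6 libraries. Top over bottom, the ratio over libraries was 1.53 to 1.94 for G2/M regulators, 1.49 to 2.19 for the spindle list, 1.45 to 1.94 for the kinetochore list and 0.746 to 0.864 for S phase, with no overlap of top and bottom quartiles in any of the 4 lists. A contrast of the 2 middle quartiles against the outer 2 called 2 genes higher in the middle (0.0191% of 10492) and 5 lower (0.0477%). Pcna was one of the former: its medians were 923, 963, 779 and 603 CPM from the first to the fourth quartile (log2 contrast 0.18 ± 0.04, adjusted p = 0.0488). Hspd1, a mitochondrial chaperone, was the other (0.14 ± 0.03). Pttg1 was lower in the middle than at the ends, with medians of 136, 137, 113 and 164 CPM; its log2 contrast was -0.29 ± 0.06. Epha4 (-0.48), Pmepa1 (-0.40), Dazl (-0.40) and Jund (-0.28) were the others. With 1 library left out, between 0 and 6 genes passed this contrast, none of the 7 in every case: Pcna had an adjusted p of 0.311 without rosette_LIM R1, and the other 3 losses were without LIF_2i R1 (0.199), rosette_LIM IB10 (0.157) and primed_4d IB10 (0.133).

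**Figure D5:**
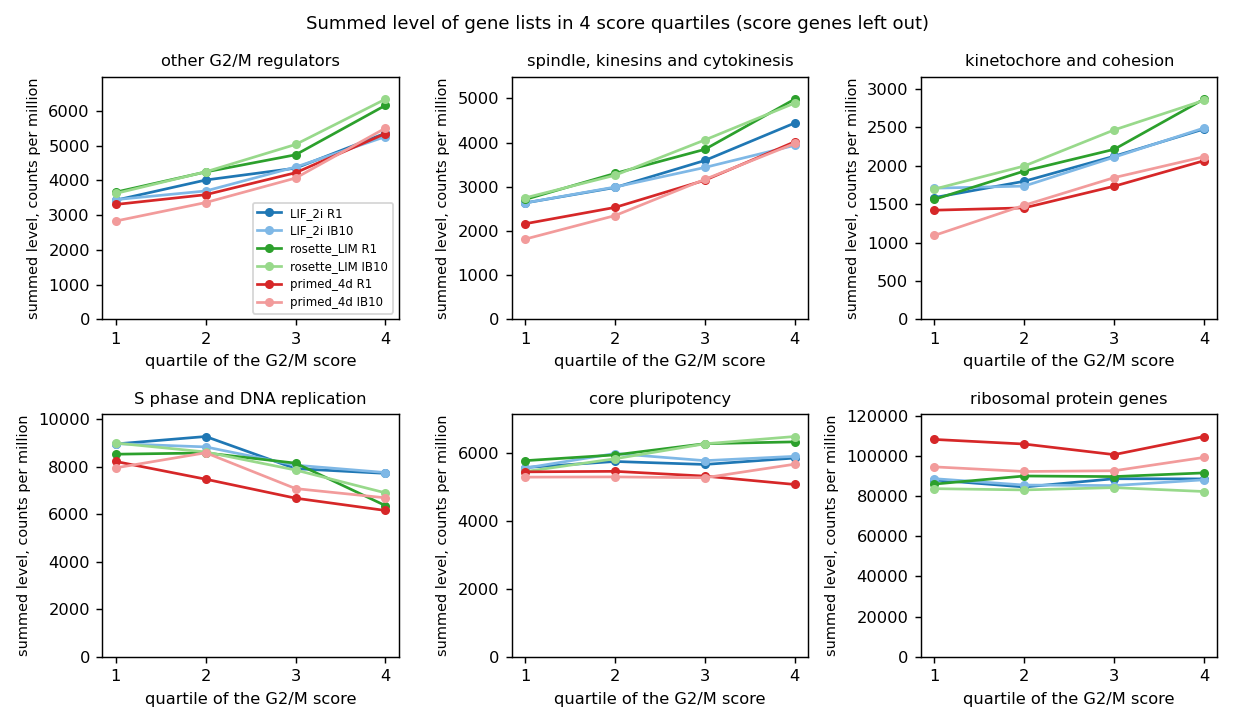
Summed level of 6 gene lists (CPM, each axis from 0) in the 4 quartiles of the score, 1 line per library, with the 12 score genes left out. The 3 mitotic lists rise to the fourth quartile and the S phase list falls to it, while the core pluripotency and ribosomal protein lists have overlapping top and bottom quartiles.

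Other cycle and response lists are read against 2.90% of all tested genes called higher and 1.74% called lower. Of G1 cyclins, kinases and inhibitors, 2 rose and 1 fell of 13 tested. Rbl1 (p107) had 0.57 ± 0.14, a call lost without LIF_2i IB10 (adjusted p = 0.0807), Cdk2 had -0.33 ± 0.09 (adjusted p = 0.127 without LIF_2i R1 and 0.157 without rosette_LIM R1), and Cdkn2d, an inhibitor of CDK4 and CDK6, had 0.63 ± 0.19, a call lost without each library except primed_4d R1 (adjusted p up to 0.161). Of DREAM and E2F regulators, 0 rose and 2 fell of 13 tested, E2f6 (-0.52 ± 0.14) and E2f8 (-0.59 ± 0.17), both repressors. E2f6 had an adjusted p of 0.117 without LIF_2i IB10, 0.0635 without rosette_LIM IB10 and 0.108 without primed_4d IB10, and E2f8 one of 0.201 without LIF_2i R1, 0.0629 without LIF_2i IB10, 0.221 without rosette_LIM R1 and 0.0760 without rosette_LIM IB10. With the top and bottom 10% of wells the log2 fold change of E2f8 turned to 0.056. Of DNA damage and repair genes, 0 rose and 2 fell of 15, among them Brca1, which had -0.48 ± 0.10 (adjusted p = 0.00201, and 0.0718 without the library block). Of immediate early genes, 2 rose and 2 fell of 16 tested: Klf6 (0.51 ± 0.13) and Mycn (0.36 ± 0.10) were higher, and Btg2 (-0.63 ± 0.14) and Id2 lower. Klf6 was not called without rosette_LIM R1 (adjusted p = 0.132), Mycn had adjusted p = 0.0523 without LIF_2i R1, 0.150 without rosette_LIM IB10 and 0.151 without primed_4d R1, and Btg2 had 0.0522 without LIF_2i IB10 and 0.0709 without rosette_LIM R1.

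Of genes induced by p53, which acts in DNA damage and other stress, 0 rose and 3 fell of 12 tested, with a median of -0.21 over all libraries. By culture the list's median log2 fold change was below 0 in LIF_2i (-0.45) and rosette_LIM (-0.27) and above it in primed_4d (0.14). Ccng1 (cyclin G1) stood at 247, 339 and 447 CPM in the bottom and 203, 271 and 351 CPM in the top quartiles, overlapping (log2 fold change -0.32 ± 0.06, adjusted p = 0.00112, lower in 5 of 6 libraries, and adjusted p = 0.0650 without the library block). Zmat3, an RNA-binding protein gene, had -0.33 ± 0.09, with adjusted p = 0.103 without LIF_2i R1, 0.143 without LIF_2i IB10, 0.0536 without rosette_LIM R1 and 0.0693 without primed_4d IB10. Mdm2, the ubiquitin ligase that degrades p53, had log2 fold changes of -0.50 in LIF_2i, -0.50 in rosette_LIM and 0.33 in primed_4d, and the difference between cultures passed (adjusted p = 0.0299). Trp53inp1 had -0.71 in LIF_2i, -0.46 in rosette_LIM and 0.17 in primed_4d (adjusted p of the difference 0.0448), and Plk2, a kinase of the Polo family, -1.23 in LIF_2i, -0.71 in rosette_LIM and 0.82 in primed_4d (0.0376). Plk2's values per library were 28.002, 25.5, 21.9, 30.8, 9.56 and 29.3 CPM in the bottom quartiles, in the order given above for the quartiles' sizes, and 11.7, 10.995, 20.5, 10.7, 31.3 and 36.8 CPM in the top quartiles. All 4 LIF_2i and rosette_LIM libraries were lower at the top and both primed_4d libraries higher. All 3 differences between cultures failed when LIF_2i R1, LIF_2i IB10 or primed_4d R1 was left out, and those of Mdm2 and Trp53inp1 also without primed_4d IB10 (0.553 and 0.0976; the first 3 libraries gave adjusted p from 0.233 to 0.863).

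Pou5f1 (Oct4) stood at 434, 578 and 837 CPM in the bottom and 433, 586 and 762 CPM in the top quartiles (log2 fold change -0.02 ± 0.06), and Sox2 at 343, 685 and 817 and 374, 655 and 898 (0.02 ± 0.05); neither was called, and both were detected at these levels in all 12 sums. Of 12 core pluripotency genes 2 rose (16.7%, against 2.90% of all tested genes): Zfp42 (Rex1), at 62.7, 1005 and 1246 and 98.3, 1175 and 1518 CPM (0.30 ± 0.05, adjusted p = 2.29e-04), and Sall4 (0.30 ± 0.06, adjusted p = 0.00157). Both rose in 6 of 6 libraries, with overlapping ranges, and neither was called without the library block (adjusted p = 0.342 and 0.0805). The lowest Zfp42 values, 62.7 and 137 CPM in the bottom quartiles, were those of primed_4d. Zfp42 was placed in the core list although its level differed in this way between cultures, so the core count depends on that choice. The naive list does not hold Zfp42. Of its 22 genes 0 were called by edgeR over all libraries, where 4.64% of all tested genes were called, and 5 had an unadjusted p under 0.05. The test of LIF_2i alone called 1 of the 22 higher, against 0.899% of all tested genes. Over all libraries, Nanog had -0.07, Esrrb 0.06 and Tfcp2l1 -0.23. Of 18 formative and primed genes 2 rose (11.1%), Etv5 (0.22 ± 0.06) and Lef1 (0.56 ± 0.16). Etv5 was not called without LIF_2i R1 or primed_4d IB10 (adjusted p = 0.0570 and 0.0532), nor Lef1 without rosette_LIM IB10, primed_4d R1 or primed_4d IB10 (adjusted p = 0.0693, 0.140 and 0.189). Tdgf1 (Cripto), the Nodal coreceptor, had 0.12 in LIF_2i, 0.37 in rosette_LIM and -0.47 in primed_4d, a difference between cultures with adjusted p = 0.00700. Lefty2, a Nodal antagonist named after its value was seen, had -0.50 ± 0.11 (adjusted p = 0.00354) and was not called without primed_4d R1 (adjusted p = 0.127).

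The counts in this paragraph also stand beside 2.90% of all tested genes called higher, 1.74% called lower and 4.64% called in all. In lists of this size 0 or 1 call lies near that share and is no result about the list. Among ribosomal protein genes 0 of 39 were called (median 0.03, 6 at an unadjusted p under 0.05). Nuclear respiratory chain genes had 0 of 17 (1 at an unadjusted p under 0.05) and cholesterol synthesis genes 0 of 15 (3 at an unadjusted p under 0.05). Of glycolysis genes 1 of 14 rose, Pfkp, a phosphofructokinase (0.38 ± 0.08, adjusted p = 9.83e-04, and 0.169 without the library block). Of chaperones 2 of 18 rose. Hspa8, the constitutive HSP70, was at 3048, 3819.6 and 4333 and 3701, 4857 and 5284 CPM (0.28 ± 0.03, adjusted p = 9.49e-08), higher in each of 6 libraries though the ranges overlap. Hspa1b, a heat-inducible HSP70 with a near-identical copy, had 1.15 ± 0.32 and adjusted p = 0.133 without LIF_2i R1, 0.0534 without LIF_2i IB10 and 0.168 without rosette_LIM R1. Of mitochondrially encoded genes 3 of 15 fell, mt-Rnr1 (-0.24 ± 0.06), mt-Rnr2 (-0.14 ± 0.04) and mtCo3 (-0.12 ± 0.03), beside the mitochondrial share of 0.960 times; the part of that share in these falls was not tested. Their adjusted p values were 0.0610 without primed_4d IB10 for mt-Rnr1, 0.0687 without LIF_2i R1 and 0.126 without primed_4d IB10 for mt-Rnr2, and 0.0985 without LIF_2i R1, 0.186 without LIF_2i IB10 and 0.0520 without primed_4d IB10 for mtCo3. Atf4, a stress-response factor named after its value was seen, had 0.49 ± 0.08 (adjusted p = 4.97e-05, and 0.125 without the library block). Of markers of other cells, edgeR called 0 of 3 tested primitive endoderm genes, 0 of 2 of 2-cell-like cells, 0 of 5 of trophectoderm and 0 of 2 of feeder fibroblasts (unadjusted p under 0.05 in 1, 0, 0 and 0 of them). Gata6, Gata4, Sox17, Cdx2, Elf5, Col1a1 and Col3a1 were all too low to be tested.

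Each culture was also tested alone, from 2 libraries and with a spread shared over the 6. In LIF_2i 91 genes were higher in G2/M-high cells (0.899%) and 25 lower (0.247%). Rosette_LIM had 118 higher (1.17%) and 45 lower (0.444%), and primed_4d 94 (0.928%) and 36 (0.356%). With 1 of its own libraries left out, LIF_2i had 21 (without R1) or 25 calls (without IB10), rosette_LIM 77 or 106 and primed_4d 82 or 78; rosette_LIM also had 108 without LIF_2i IB10. LIF_2i and rosette_LIM shared 63 rises, 69.2% of the LIF_2i rises and 53.4% of the rosette_LIM rises. LIF_2i and primed_4d shared 53, 58.2% and 56.4% of theirs, and rosette_LIM and primed_4d 67, 56.8% and 71.3%. A smaller part of the falls was shared. LIF_2i and rosette_LIM shared 12 falls, 48% and 26.7% of theirs. LIF_2i and primed_4d shared 6, 24% and 16.7%, and rosette_LIM and primed_4d 7, 15.6% and 19.4%. The spindle list had a median log2 fold change of 0.65 in LIF_2i, one of 0.91 in rosette_LIM and one of 1.12 in primed_4d, and for G2/M regulators these medians were 0.46, 0.64 and 0.70. The ratio of top to bottom score was 2.46 and 2.34 in LIF_2i (R1 and IB10), 2.79 and 2.61 in rosette_LIM, and 2.60 and 3.22 in primed_4d, and its part in these medians was not tested.

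The test of the difference between cultures called 19 of 10125 genes (0.188%). At an unadjusted p under 0.05 there were 509, near the share that this threshold passes when no gene differs. Of the 19, 11 were also called over all libraries. These calls rest on single libraries: 1 gene passed without LIF_2i R1 and 1 without LIF_2i IB10, 8 without primed_4d R1, and 23 to 29 without each of the other 3. For Arl6ip1, a membrane-shaping protein of the endoplasmic reticulum, the rise was 0.88 in LIF_2i, 1.22 in rosette_LIM and 1.73 in primed_4d (adjusted p of the difference 0.00755). It stood at 319 and 409.8 CPM in the bottom and 674 and 672 CPM in the top quartiles of LIF_2i, and at 152 and 129 CPM in the bottom and 433 and 499 CPM in the top quartiles of primed_4d. Cdc20 had 0.56 in LIF_2i, 0.88 in rosette_LIM and 1.49 in primed_4d (0.0125) and H2afx 0.82 in LIF_2i, 0.99 in rosette_LIM and 1.59 in primed_4d (0.0299). Ung fell by more in primed_4d, with -0.44 in LIF_2i, -0.97 in rosette_LIM and -1.52 in primed_4d (0.00755). These 4 genes kept 1 direction in every culture. G2e3, a ubiquitin ligase of G2, rose in LIF_2i and rosette_LIM, with 1.78 in LIF_2i, 1.64 in rosette_LIM and 0.31 in primed_4d (0.00326). It was at 8.32 and 16.5 CPM in the bottom and 41.5 and 46.1 CPM in the top quartiles of LIF_2i and at 119 and 101 CPM in the bottom and 132 and 139 CPM in the top quartiles of primed_4d, so every primed_4d sum was above every LIF_2i sum. Bnip3, a mitophagy receptor, was the 1 gene called in opposite directions in different cultures, with -0.99 in LIF_2i, 0.96 in rosette_LIM and -0.17 in primed_4d (2.12e-04). Its levels were 71.9 and 26.7 CPM in the bottom and 24.6 and 21.1 CPM in the top quartiles of LIF_2i, and 23.6 and 57.9 CPM in the bottom and 45.3 and 113 CPM in the top quartiles of rosette_LIM. In both libraries of each of these 2 cultures the sign was the same. Its difference failed without LIF_2i R1 (adjusted p = 0.152) and passed without each of the other 5 libraries. Aass, an enzyme of lysine breakdown, had -0.72 in LIF_2i, -0.52 in rosette_LIM and 1.15 in primed_4d (0.00493). The differences of Arl6ip1, Cdc20, H2afx, Ung, G2e3, Aass and Tdgf1 each failed without LIF_2i R1 and without LIF_2i IB10 (adjusted p from 0.105 to 1.00). All but Arl6ip1 also failed without primed_4d R1 (adjusted p from 0.0875 to 0.796), and Arl6ip1, Cdc20 and H2afx without primed_4d IB10 (adjusted p = 0.400, 0.353 and 0.553).

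Among the 19, 7 genes moved alike: Vmn2r55, Gm17821, Kcnq1ot1, A630089N07Rik, Gm10785, Grk4 and A130077B15Rik were lower in the top quartile of primed_4d and were not called in LIF_2i or rosette_LIM. Kcnq1ot1, a long noncoding RNA of an imprinted region, had 0.01 in LIF_2i, -0.05 in rosette_LIM and -1.13 in primed_4d (adjusted p of the difference 7.62e-06). Its level was 4086 and 1945 CPM in the bottom and 1149 and 1454 CPM in the top quartiles of primed_4d, and the bottom quartile of primed_4d R1 stood highest of all 12 sums. The library primed_4d R1 had 98 wells in range, the fewest of the 6, and without it the difference had an adjusted p of 0.404. Without LIF_2i R1 or LIF_2i IB10 it had 0.0700 or 0.257, and that of Vmn2r55 had 0.0681 without LIF_2i IB10. With wells of at least 20000 counts the difference had an adjusted p of 1.000 for Kcnq1ot1 and 1.000 for Vmn2r55. Vmn2r55 belongs to a large receptor family, whose copies can share reads. Under DESeq2, without the library block and with thinned wells 0 genes passed the test of the difference between cultures.

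The promoter letters shown at the start were counted in 300-base windows (250 before to 50 after each RefSeq start, GRCm38.p6), with a gene counted where any of its windows held the letters. Of the 12 score genes 11 were matched, and 9 of them (81.8%) held a CHR and all 11 a CCAAT box. Among the 51 rises called in every culture 40 were matched and 28 (70.0%) held a CHR, 29 (72.5%) a CCAAT box and 23 (57.5%) both in 1 window. The CHR share was 38.6% among all matched rises (228), 13.2% among matched falls (136), 15.9% among matched tested genes (7664) and 21.7% among all 27025 genes with a promoter. CCAAT shares lay closer together, at 57.5% of rises, 53.7% of falls and 44.1% of tested genes. CHR letters were present in 71.2% of the 59 matched genes of the 3 mitotic lists and in 15.6% of the 32 matched S phase genes. E2F letters, a motif chosen after the data were seen, were in 34.4% of the S phase list, 10.3% of falls, 3.51% of rises and 3.99% of tested genes. Rises without CHR letters in this window included Nusap1, Arhgef39, Fzr1, Kif18a and Cks2. The Arhgef39 window (chr4:43508698-43508997) does not touch the gene as GENCODE places it (chr4:43496142-43499695), so it may miss that gene's promoter. A match of letters is a description and not a measured binding site.

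The counts of called genes depended on the test. DESeq2 called 122 rises and 40 falls, the fit without the library block 131 and 41, and wells thinned to 10000 UMIs 132 and 41. The thinned fit tested 6782 genes rather than 10125, so a call lost there can be a gene that was not tested. With 1 library left out there were 210 to 300 rises and 90 to 148 falls; the falls were 90 without rosette_LIM R1, 103 without rosette_LIM IB10 and 105 without LIF_2i IB10.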

How the data were processed

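The deposited table holds estimated counts per gene and well: UMI numbers that the authors corrected for collisions among 4096 possible UMIs, as the values themselves show (100% of nonzero values lie within 0.005 of a corrected whole number). Mapping used BWA and build mm10 (GRCm38), per the submitters' processing notes; no source used here gives BWA's version, the annotation or the handling of multimapping reads. The table has 19532 gene rows and 91 ERCC rows, which held 1.75% of counts and were left out of gene levels. No doublet caller was run, and wells with over 200000 or under 10000 gene counts were left out.

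Wells were ranked by the score within each library, and the estimated counts of each quartile were summed and rounded to whole numbers. The sums were fitted with edgeR 4.0.16 (R 4.3.3; TMM scaling, low-count filter with a minimum count of 10, quasi-likelihood F test) with library as a block and the 12 score genes left out of the tests. The pairing is by construction, since both quartiles of a pair are wells of 1 library. CPM are TMM-scaled. Alternatives used DESeq2 1.42.0 and limma 3.58.1 (on log2 of mean well shares plus 5 CPM), other cuts, well ranges and score definitions, wells thinned to 10000 UMIs, and fits without each library. Well measures were compared with an exact sign-flip permutation test over 6 libraries, with Benjamini-Hochberg adjustment by scipy 1.17.1. The scripts were tested on simulated counts.

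Among called genes with 1 sign in all 6 libraries and a mean of at least 10 CPM, the 20 largest rises and 15 largest falls were named, with up to 4 members of each list by p, members that just missed, the 10 strongest differences between cultures and the genes of the middle-quartile contrast; further names are stated as picked after their values were seen. A few genes that met this rule are not reported here. The members, gene lists and tests were chosen with earlier results of these data known. Per-well depth is given as counts, so levels of low genes rest on few molecules, and p-values cover the spread among the 6 libraries only.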

Additional observations from a re-analysis of the deposited data

Results flagged for a closer look

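The change with the score differed between the 3 cultures in 19 genes by edgeR's F test of the difference over 10125 genes, and 17 of them are given here. Log2 fold changes below stand in the order LIF_2i, rosette_LIM, primed_4d. Among 6 of the 7 genes that were lower in the top quartile of primed_4d, Vmn2r55 had 0.07, -0.14 and -1.18 (adjusted p = 8.73e-07), Gm17821 had 0.06, -0.17 and -1.11 (adjusted p = 6.84e-06) and Kcnq1ot1 had 0.01, -0.05 and -1.13 (adjusted p = 7.62e-06). A630089N07Rik had 0.02, -0.15 and -1.15 (adjusted p = 7.62e-06), Gm10785 had 0.10, -0.25 and -0.81 (adjusted p = 3.83e-04) and Grk4 had 0.03, -0.01 and -1.38 (adjusted p = 0.00102). Among cycle genes, Arl6ip1 had 0.88, 1.22 and 1.73 (adjusted p = 0.00755), Cdc20 had 0.56, 0.88 and 1.49 (adjusted p = 0.0125) and H2afx had 0.82, 0.99 and 1.59 (adjusted p = 0.0299). Ung had -0.44, -0.97 and -1.52 (adjusted p = 0.00755) and G2e3 had 1.78, 1.64 and 0.31 (adjusted p = 0.00326). Among p53 targets, Mdm2 had -0.50, -0.50 and 0.33 (adjusted p = 0.0299), Plk2 had -1.23, -0.71 and 0.82 (adjusted p = 0.0376) and Trp53inp1 had -0.71, -0.46 and 0.17 (adjusted p = 0.0448). Bnip3 had -0.99, 0.96 and -0.17 (adjusted p = 2.12e-04), Aass had -0.72, -0.52 and 1.15 (adjusted p = 0.00493) and Tdgf1 had 0.12, 0.37 and -0.47 (adjusted p = 0.00700). Under DESeq2, without the library block and with thinned wells 0 of these differences passed.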

How the results depend on the processing

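Against 294 rises and 176 falls, DESeq2 gave 122 and 40, and wells thinned to 10000 UMIs gave 132 and 41. Falls numbered 85 with the top and bottom 10% of wells (10% cuts) and 111 with limma on mean well shares. Genes tested numbered 10125 in the main fit and with DESeq2, 6782 with thinned wells, 7696 with the 10% cuts and 9814 with limma. Leaving out 1 library gave 210 to 300 rises and 90 to 148 falls. The 357 calls with 1 sign in all libraries were 153 under DESeq2, 225 with the 10% cuts, 129 with thinned wells and 269 to 369 with 1 library left out. For LIF_2i the 116 calls became 21 (DESeq2), 26 (thinned), 61 (limma) and 21 to 157 (1 library left out). For rosette_LIM the 163 became 47, 70 (thinned) and 77 to 195, and for primed_4d the 130 became 50, 38 (thinned) and 78 to 156. Fits with 1 library left out of a culture assume that the lone library varies like the others.

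Without the library block, which drops the pairing of quartiles within a library, there were 131 rises, 41 falls, 162 calls with 1 sign, 24 calls in LIF_2i, 52 in rosette_LIM and 45 in primed_4d, 0 differences between cultures and 0 genes in the middle-quartile contrast. The 19 differences between cultures were 0 under DESeq2 and with thinned wells, 8 with the 10% cuts, 3 with wells of at least 20000 counts, 9 with a z-score, 6 and 11 with either set of 6 score genes, and 1 to 29 with 1 library left out. The 7 genes of the middle-quartile contrast were 40 with no filter, 3 without TMM, 1 with the 33.3% cuts, 177 with the 10% cuts, 17 and 2 with wells of at least 6000 and 20000 counts, 0 with thinned wells and with limma, 3 with a z-score, 4 and 20 with either set of 6 score genes, and 0 to 6 with 1 library left out. The cause of these shifts was not tested.

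The ratio of RNA per ERCC was 1.45 to 1.53, of counts per well 1.37 to 1.44 and of genes detected 1.13 to 1.16 with 1 library left out. The mitochondrial ratio was 0.950 to 0.973, and it was 0.927 with the 10% cuts, 0.976 with 6 score genes and 0.946 as a mean over wells, each with exact p = 0.03125. Signs turned for Sox2 with the top and bottom 33.3% of wells (-0.024), a z-score (-0.071), 6 score genes (-0.096) and without rosette_LIM IB10 (-0.0018, with 1 library left out up to 0.062), for Pou5f1 with the 10% cuts (0.040), limma (0.0016), and without LIF_2i IB10 (0.0027) or primed_4d R1 (0.067, with 1 library left out down to -0.10), for E2f8 with the 10% cuts (0.056) and for Slfn9 with thinned wells (0.045). Of the 470 calls, 162 were also called by DESeq2, 172 without the block and 141 with thinned wells, where only 6782 genes were tested.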

Other observations

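Of 8 tested lineage regulators edgeR called 1, Tubb3, a neuronal tubulin gene, higher in G2/M-high cells (0.32 ± 0.09, adjusted p = 0.0412, and 0.113 without LIF_2i R1, 0.103 without LIF_2i IB10, 0.178 without rosette_LIM R1 and 0.211 without rosette_LIM IB10). Of 12 WNT targets 1 was called, Lef1, described above. Each of these counts of 1 lies near the 4.64% of all tested genes that were called, and is no result about its list. Kif18b, a kinesin of astral microtubules named after its value was seen, stood at 14.6, 28.048 and 39.3 CPM in the bottom and 46.1, 62.5 and 64.5 CPM in the top quartiles (log2 fold change 1.00 ± 0.15, adjusted p = 1.00e-05).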
